A study of Mus musculus with 24 samples.

Results

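The genes described are the cytosolic ribosomal protein genes of the mouse, taken as the rows of a gene count table that map in GENCODE M21 to an autosomal protein-coding gene with a ribosomal protein symbol. They number 71 of 48985 rows, with 41 genes of the large subunit (Rpl symbols, including Rplp0, Rplp1 and Rplp2) and 30 of the small subunit (Rps symbols, including Rpsa). Rpl6 and Rpl19 fit the symbol rule and are not analysed here. Just outside the rule, 4 X-linked genes (Rpl10, Rpl36a, Rpl39 and Rps4x) and 2 genes annotated as pseudogenes have matching symbols.

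RNA was measured in 24 libraries of F121/9, a female embryonic stem cell line with one genome from 129/Sv and one from CAST/EiJ, grown on gelatin in serum-free medium with LIF, 1 µM PD0325901 (a MEK inhibitor) and 3 µM CHIR99021 (a GSK-3β inhibitor). The 5 recombinations carry the labels d3, d6, i7, i12 and i10, each with a parental line labelled as control and 1 or 2 clones labelled as recombined. The clones were d3 clone 12, d3 clone 21, d6 clone 16, i7 clone 7, i7 clone 12, i12 clone 10 and i10 clone 18. Every line had 2 replicates. Each recombined line is 1 clone, so an effect of the recombination and a difference between clones cannot be told apart. The labels do not say whether replicates were separate cultures, so p-values measure the spread between these samples, which may be technical.

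Ribosomal proteins are assembled with ribosomal RNA into the small subunit, which decodes the messenger RNA, and the large subunit, which forms peptide bonds. Because each protein enters the ribosome in a fixed amount, the genes are known for coordinated high expression in growing cells. Their messenger RNAs typically begin with a cytosine followed by a run of pyrimidines, the 5′ terminal oligopyrimidine motif through which mTOR and LARP1 control translation. Mammalian ribosomal protein genes also have many processed pseudogenes, copies of the messenger RNA inserted elsewhere in the genome.

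RefSeq promoter windows (build GRCm38.p6) were available for 51 of the 71 genes, in 60 windows. A run of at least 8 C or T on the sense strand, within the stretch from 10 bases before to 20 bases after the annotated start, was present in 35.0% of these windows and in 11.2% of all 32851 windows. The letters CTTTC, which can lie inside such a run, were found in the same stretch and strand in 23.3% of the windows of ribosomal protein genes and in 3.74% of all windows. CCGGAAG was found on either strand, anywhere in the window, in 36.7% against 8.86%, and TATAAA in 6.67% against 13.6%. A match describes the letters of the window and no more. The 5 windows below run from 50 bases before to 30 bases after the annotated start and show the pyrimidine run, in capitals, in genes that the later results describe or that carry CTTTC.
Rpl15 (chr14:18270957-18271036, minus strand): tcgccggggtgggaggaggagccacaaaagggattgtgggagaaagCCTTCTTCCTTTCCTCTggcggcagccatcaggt
Rpl35 (chr2:39005102-39005181, minus strand): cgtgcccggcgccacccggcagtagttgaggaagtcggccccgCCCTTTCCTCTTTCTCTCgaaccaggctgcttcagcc
Rpl38 (chr11:114668530-114668609, plus strand): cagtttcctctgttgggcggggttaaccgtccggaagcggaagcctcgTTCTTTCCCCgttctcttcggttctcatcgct
Rplp2 (chr7:141447601-141447680, plus strand): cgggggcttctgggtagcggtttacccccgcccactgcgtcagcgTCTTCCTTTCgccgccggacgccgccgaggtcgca
Rps18 (chr17:33955636-33955715, minus strand): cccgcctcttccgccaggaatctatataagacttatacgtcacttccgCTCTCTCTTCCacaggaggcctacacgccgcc

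The table has near-identical copies beside the genes, and this bears on every value that follows. Of the annotated pseudogenes, 582 matched 1 of the 71 genes over at least 75 bases, the read length, at 95% identity or more, and 335 of these had a row. Rpl21 had the most copies (62), followed by Rpl7a (39) and Rpl29 (32). The counts of the copies came to 27.0% of the counts of the genes themselves, and the copies outnumbered their gene in 9 cases. All 75-base coding windows were found in another gene for 21 of the genes, while Rps3 and Rpl41 were among those with no such window. Both still had copies at 95% identity or more. Rps3 had 2, holding 15040 counts against 403140 in the gene. Rpl41 had 3, holding 3431 counts against 6541 in the gene. The first 75 coding bases of 4 genes are shown with the aligned bases of their most counted copy, capitals marking bases where the copy differs.
Rpl38: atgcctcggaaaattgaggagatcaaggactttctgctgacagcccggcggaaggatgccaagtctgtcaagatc
Rpl38-ps2: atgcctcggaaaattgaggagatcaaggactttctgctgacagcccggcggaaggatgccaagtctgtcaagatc
Rpl23: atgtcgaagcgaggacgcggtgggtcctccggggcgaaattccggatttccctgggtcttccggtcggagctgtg
Gm9794: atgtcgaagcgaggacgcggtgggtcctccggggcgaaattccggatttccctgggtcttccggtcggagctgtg
Rplp1: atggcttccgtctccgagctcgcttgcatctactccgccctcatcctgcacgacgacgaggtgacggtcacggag
Gm11942: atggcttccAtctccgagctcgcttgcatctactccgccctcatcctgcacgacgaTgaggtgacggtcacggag
Rps24: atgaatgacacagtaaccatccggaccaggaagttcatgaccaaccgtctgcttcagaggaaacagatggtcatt
Gm11878: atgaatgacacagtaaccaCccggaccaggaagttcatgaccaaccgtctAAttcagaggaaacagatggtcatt

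Rpl38, a large subunit protein, and Rpl38-ps2 on chromosome 6 were identical over these bases. The Rpl38 row held 30 counts in all libraries together, and the Rpl38-ps2 row held 75449, all of them assigned to CAST. Rpl23 and Gm9794 were also identical here, with 83877 counts in the Gm9794 row, all assigned to 129S1. How reads matching several places were counted is not given in the sources used here, so levels and allele shares of genes with copies are uncertain. Among rows of the table, 21 of the genes overlapped a gene on the opposite strand and 30 a gene on the same strand.

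Total counts ran from 3286819 to 15581094 per library. The embryonic stem cell markers Pou5f1 and Nanog were high in all libraries, at 511 to 1109 CPM and 985 to 2217 CPM. Of the fibroblast genes, Col1a1 was at no more than 3.77 CPM, and of the primitive endoderm genes, Gata6 was at no more than 0.59 CPM. Enough counts for the test were present in 2 of 5 fibroblast genes and 2 of 4 primitive endoderm genes. The same was true of 3 of 4 epiblast and mesendoderm genes, so these lists were not silent throughout. d3 parental replicate 2 stood apart from its replicate in the share of ribosomal protein counts. All copies together held 20.6% to 21.9% of the counts of genes and copies in a library. A single copy, Gm16409 of Rps6, set libraries apart more and is given as an example. It was at 191 and 459 CPM in d6 parental and at 402 and 127 CPM in i7 parental. In i10 parental it was at 76.5 and 111 CPM. The cause was not tested.

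The 71 genes together took 5.54% to 8.77% of the counts of a library, with a median of 6.98%. The 2 libraries of d3 parental had 6.06% and 8.77%, those of d3 clone 12 had 6.02% and 5.98%, and those of d3 clone 21 had 5.99% and 6.14%. d6 parental had 5.54% and 5.71%, below both libraries of d6 clone 16, at 6.29% and 5.95%. In i7 the shares were 6.79% and 7.22% in the parental line, 6.89% and 7.49% in clone 7, and 7.43% and 7.87% in clone 12. The highest shares outside d3 were in i12 and i10: 7.22% and 8.54% in i12 parental, 7.01% and 7.99% in i12 clone 10, 6.95% and 8.51% in i10 parental, and 7.59% and 8.75% in i10 clone 18. Clone and parental libraries overlapped in d3 clone 21, i7 clone 7, i12 and i10. Against the parental library of the same replicate number, both differences had one sign in each clone, for example 0.10 and 0.27 points in i7 clone 7, -0.22 and -0.56 in i12 clone 10, and 0.64 and 0.24 in i10 clone 18. The labels do not say that these numbers pair the libraries. The share of mitochondrial genes also differed, at 6.11% and 3.16% in d3 parental, 6.42% to 8.21% in the d3 clones, 8.61% and 7.96% in d6 parental, and 4.48% and 7.50% in d6 clone 16. With mitochondrial genes left out of the total, the 4 libraries of the d3 clones had 6.48% to 6.56%, above d3 parental replicate 1 at 6.45% and below replicate 2 at 9.05%. The part of mitochondrial counts in the shares was not tested further. Counting error was small beside these differences, with a 95% Wilson interval of 5.52% to 5.55% for the lowest library, and covers counting error only.

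**Figure D1:**
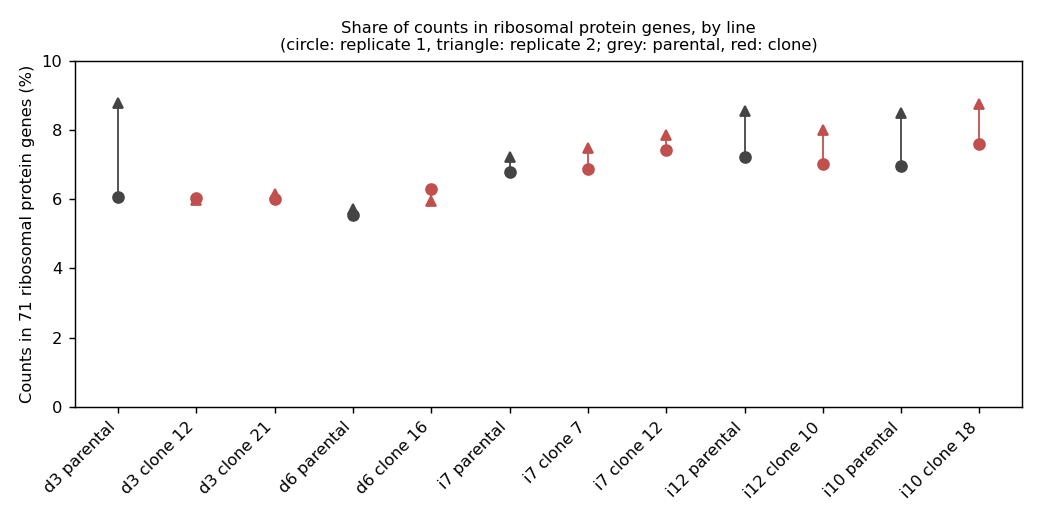
Percent of each library's counts in the 71 ribosomal protein genes (y axis) for the 12 lines (x axis), with replicate 1 as a circle and replicate 2 as a triangle. The triangle of d3 parental, at 8.77%, lies far above its circle at 6.06%.

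Per kilobase of transcript, the levels differed widely between genes of the same particle. The length was the median over annotated protein-coding transcripts, which in 5 genes was shorter than the coding sequence (Rpl3, Rplp0, Rpl10a, Rpl13a and Rpl18), so that their levels per length are too high. Rplp1, an acidic protein of the ribosomal stalk, had a mean of 5224 CPM per kb (range over the 24 libraries 3377 to 7541). Rpl3, a core protein of the large subunit, had 5352 CPM per kb over 816 bases, and 3612 (2752 to 4506) over its coding sequence of 1209 bases, which placed it below Rplp1. The next highest were Rps12 at 3199, Rplp0, the stalk base, at 2989, Rpl4 at 2969, Rps9 at 2338, Rpl13a at 2266 and Rpl10a at 2227 CPM per kb. The other stalk protein, Rplp2, was at 1028, and Rpsa, which also has a role as a laminin receptor, at 987 CPM per kb. Among the lowest were Rpl38 at 0.43, Rpl41 at 57.7 and Rpl29 at 162 CPM per kb. Of these, Rpl38 and Rpl29 had copies holding most of the counts of gene and copies together, 99.96% and 60.9%. With a length of at least the coding sequence, Rpl13a came to 1842 CPM per kb and left the 8 highest. With the union of all annotated exons as the length, 4 of the 8 highest genes stayed among the 8 highest.

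Some genes varied far more across the libraries than others. Rpl12, of the large subunit stalk base, ran from 442 CPM in d6 parental to 1499.7 CPM in i10 clone 18, a ratio of 3.39 between the highest and lowest library. The ratio was 4.37 for Rpl41, the shortest ribosomal protein, which ran from 11.3 CPM in i7 parental to 49.4 CPM in d3 clone 12. It was only 1.40 for Rpl7. These 3 genes were picked after their values were seen.

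**Figure D2:**
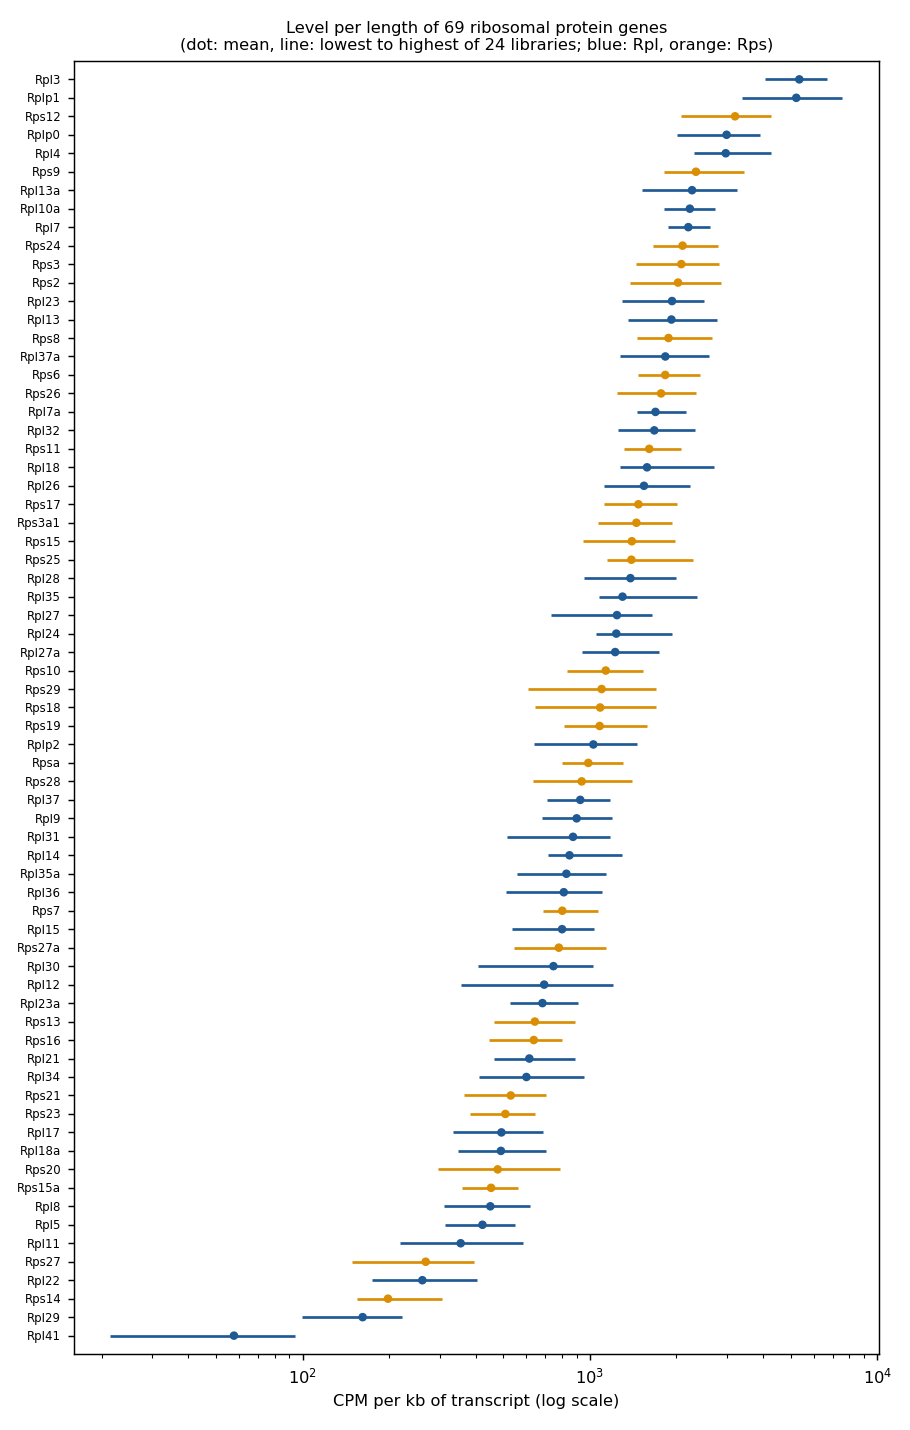
Level of each gene in CPM per kb of transcript (x axis, log scale), as the mean and the range over 24 libraries, with genes at 0 in a library and 1 further gene left out. Rpl3, at 5352 CPM per kb, and Rplp1, at 5224, stand highest, and the length used for Rpl3 is shorter than its coding sequence.

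No ribosomal protein gene passed the test in any clone. The quasi-likelihood test of edgeR, adjusted by Benjamini-Hochberg over 16253 genes, called 0 of the 70 tested ribosomal protein genes in each of the 7 clones, at an adjusted p under 0.05. DESeq2 also called 0 in each. Of all genes tested, 0.0123% were called for d3 clone 12 and likewise for d6 clone 16, 0.0554% for d3 clone 21, 0.0246% for i7 clone 12, and 0.0% for i7 clone 7, i12 clone 10 and i10 clone 18. An unadjusted p under 0.05 was reached by 21 ribosomal protein genes for d3 clone 12, by 10 for d3 clone 21, by 3 for i7 clone 12 and by 0 for the other clones. The percentages above are adjusted calls. The share of all genes at an unadjusted p under 0.05 is not given here, so these counts have no like background.

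The fitted differences of the genes were mostly of one sign within a clone. The median log2 difference was -0.32 in d3 clone 12, with 65 of 70 genes lower, and -0.34 in d3 clone 21, with 68 lower, against medians of 0.01 and -0.01 over all genes. Some lists of related genes had similar medians in these 2 clones. They were -0.32 and -0.34 over 74 mitochondrial ribosomal proteins and -0.40 and -0.32 over 12 ribosomal protein genes outside the rule. Medians were nearer to none over 28 biogenesis factors, at -0.18 and -0.22. The same held for 15 other messenger RNAs with a pyrimidine start, at -0.09 and -0.17. Over 11 regulators such as Myc, Mtor and Larp1 the medians were positive, at 0.15 and 0.09. Each list had 0 genes called. Both d3 values rest on d3 parental replicate 2: without it the medians were -0.0025 and -0.014, and without replicate 1 in its place they were -0.60 and -0.60, with 19 and 12 genes called lower (4.74% and 3.63% of all genes called). That leaves 1 parental library, which is assumed to vary like the other lines. Both clones were compared with the same parental libraries. The median was 0.11 in d6 clone 16 (56 higher), 0.05 in i7 clone 7 (56 higher), 0.19 in i7 clone 12 (64 higher), -0.04 in i12 clone 10 (20 higher) and 0.07 in i10 clone 18 (64 higher). The 2 i7 clones also share their parental libraries.

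**Figure D3:**
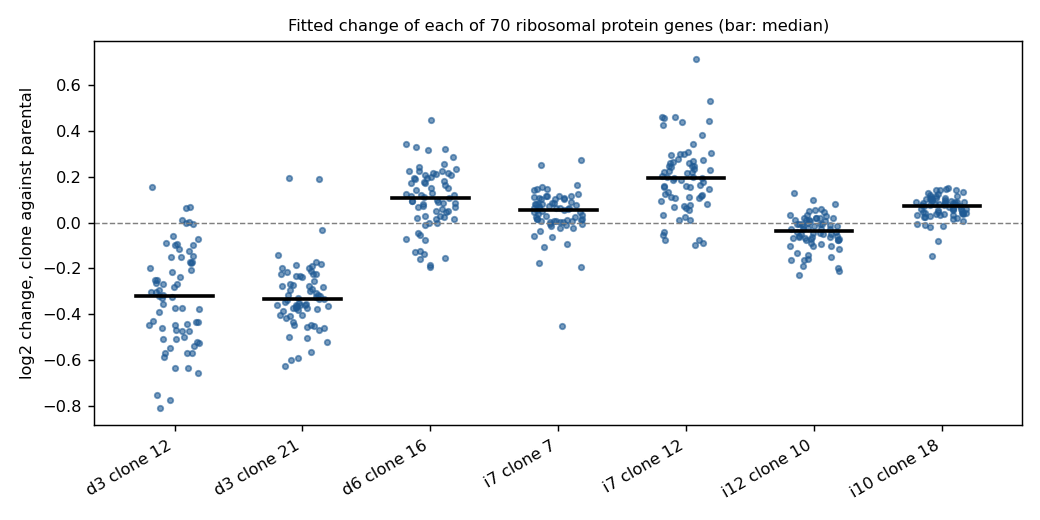
Fitted log2 difference of each of the 70 tested genes (points) from the parental line (y axis) in each clone (x axis), with the median as a bar. The medians in d3 clone 12 and d3 clone 21 lie at -0.32 and -0.34, and the other medians between -0.04 and 0.19.

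The mean effect over the 5 recombinations had a median of -0.02 over the ribosomal protein genes, and edgeR called 0 of 70, with 0 at an unadjusted p under 0.05 and 0 called by DESeq2 (0.0123% of all genes called). The joint edgeR test of whether the effects differ between recombinations called 0 of 70, with 0 at an unadjusted p under 0.05 (0.0123% of all genes called). Between the clones of one recombination, 0 were called by edgeR and by DESeq2. Of all genes tested, 0.0492% were called for d3 clone 21 against clone 12 and 0.0923% for i7 clone 12 against clone 7. An unadjusted p under 0.05 was reached by 1 and 4 ribosomal protein genes, again without a like background.

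Between the 5 parental lines, 5 of 70 ribosomal protein genes differed by edgeR's joint test, Rps18, Rpl29, Rpl34, Rps29 and Rplp2, where 6.64% of all genes were called, so the share is near the background. Rps18, of the small subunit head, had 503 and 594 CPM in d3, 406 and 349 in d6, 371 and 565 in i7, 683 and 895 in i12, and 668 and 924 in i10 (adjusted p = 0.0282). The i10 and i12 libraries were all above those of d3, d6 and i7. Rpl29 had 99.7 and 74.9 CPM in d3, 74.3 and 69.8 in d6, 64.4 and 99.1 in i7, 119 and 138 in i12, and 131 and 138 in i10 (edgeR adjusted p = 0.0326). Again the i10 and i12 libraries did not overlap the rest. They were also the shallowest parental libraries, at 3286819 to 5189267 counts against 6345947 to 12263924 in d3, d6 and i7. The part of depth was not tested. Rps29, a zinc-binding protein of the small subunit, had 439 and 663 CPM in d3, 278 and 237 in d6, 296 and 377 in i7, 494 and 529 in i12, and 502 and 545 in i10 (edgeR adjusted p = 0.0427). Its d3 libraries spread across the i10 and i12 values, and d6 was lowest. Rpl34 ranged from 257 CPM in d6 to 596 CPM in i12 (edgeR adjusted p = 0.0342), and Rplp2 from 304 CPM in d6 to 655 CPM in i12 (edgeR adjusted p = 0.0452). Each of the 5 calls was lost on leaving out at least 1 library.

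Other genes of the pathway were compared in the same test between parental lines, where 6.64% of all genes were called. The lists were not tested against that share. Of ribosomal protein genes outside the symbol rule and related genes, 4 of 12 tested were called. Of other messenger RNAs with a pyrimidine start, such as translation elongation factors, 1 of 15 was called. Ribosome biogenesis factors had 2 of 28 called, mitochondrial ribosomal proteins 6 of 74, and regulators such as Myc, Mtor and Larp1 had 0 of 11.

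Allele shares differed widely between the genes. Over the parental lines the ratio of 129S1 to CAST counts differed from 1 in 63 of 69 tested ribosomal protein genes by edgeR, 29 toward 129S1 and 34 toward CAST, where 69.1% of all 10795 genes were called. The median size of the log2 ratio was 1.20 in these genes and 0.37 over all genes tested. Where libraries held 50 or more counts on average, 26 of 70 ribosomal protein genes (37.1%) had a 129S1 share under 20% or over 80%, against 16.7% of 10656 other genes outside the mitochondrial genome and 85.0% of 147 copies.

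The highest shares in the pooled parental libraries were those of Rps15 (99.9%), Rpl18 (99.7%), Rplp1 (99.5%) and Rpl13a (99.4%). Rpl23 (0.28%), Rpl26 (0.38%), Rps20 (0.41%) and Rplp2 (0.74%) had the lowest. The 2 acidic stalk proteins thus stood at opposite ends. Within a gene the libraries were close: Rplp1 ran from 99.1% to 99.7% over the 10 parental libraries and Rplp2 from 0.32% to 2.18%.

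The copies carried allele shares of their own. Adding the counts of its copies brought the 129S1 share of a gene closer to 50% in 41 of 65 genes and farther from it in 24. For Rpl23, the addition moved the 129S1 share over all 24 libraries from 0.29% to 23.4%, for Rps24 from 18.4% to 40.5%, and for Rpl15 from 95.4% to 80.5%. In the other direction, Rps23 moved from 62.5% to 77.1% and Rps27 from 20.6% to 6.14%. Over the 65 genes with counted copies, the median distance of the share from 50% was 20.3 points for the gene alone and 17.0 points with its copies added. It was 11.01 points in 11 genes with under 25% of their windows found elsewhere, 24.7 points in 39 genes with more, and 18.1 points in 20 genes with all windows found elsewhere. Shares under 20% or over 80% occurred in 3 of the 11, 18 of the 39 and 5 of the 20 genes. Among the 3 were Rps15 and Rpl13a, with 23.3% and 12.1% of their windows found elsewhere. Rps3, without a shared window, had 53.6% and ranged from 52.2% to 55.0% over the parental libraries. The part of read assignment in these shares was not tested.

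**Figure D4:**
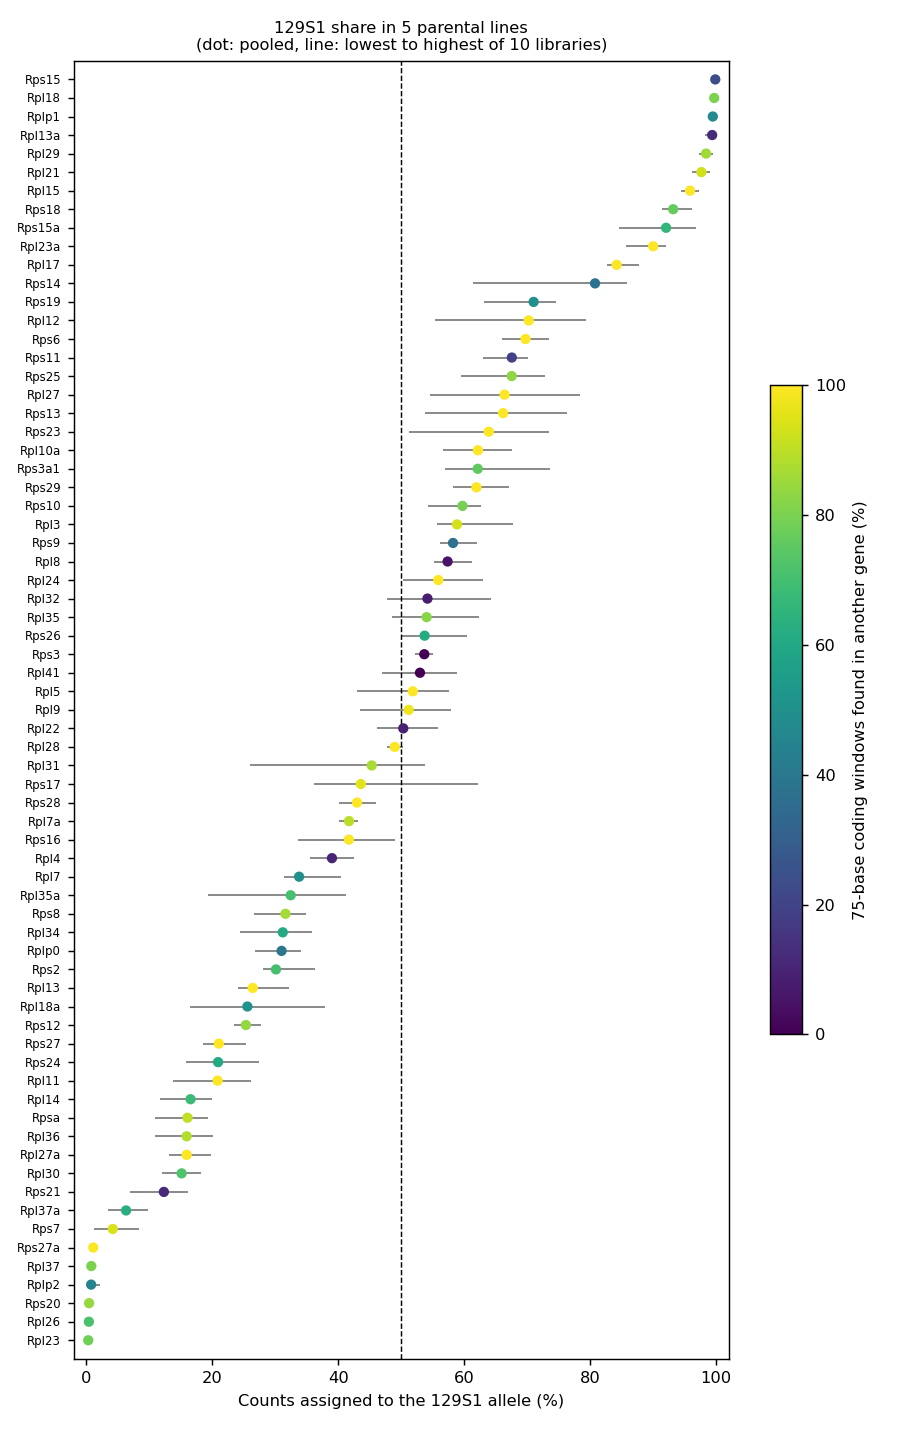
Percent of counts assigned to 129S1 (x axis) for 69 genes with at least 50 counts per library on average, pooled over 10 parental libraries with the range as a line and the percent of coding windows found in another gene as the colour. Rpl23 lies at 0.28% and Rps15 at 99.9%.

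Of the changes in allele ratio between clones and parental lines, 1 passed the test. In d3 clone 21 the ratio of Rps24, a small subunit protein encoded on chromosome 14 (ENSMUSG00000025290.17, chr14:24487125-24496959, plus strand), fell by 1.22 on the log2 scale (SE 0.25, edgeR adjusted p = 0.00287; 3.41% of all genes called). Its 129S1 counts were 1218 and 1323 in that clone and 2070 and 3191 in d3 parental, and its CAST counts 10726 and 8932 against 8567 and 8556. The clone had 129S1 shares of 10.2% and 12.9%, and d3 parental had 19.5% and 27.2%, without overlap. Low shares of Rps24 also occurred outside d3, at 12.4% and 19.1% in i7 clone 7. The call was lost without d3 parental replicate 2 (-0.88, adjusted p = 0.144) and without d3 clone 21 replicate 1 (-1.01, adjusted p = 0.105).

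The row of Rpl15, the other member gene of that chromosome (large subunit, ENSMUSG00000012405.16, chr14:18267823-18271391, minus strand), stayed mostly on 129S1 in d3 clone 21. Over 345 other chromosome 14 genes the pooled 129S1 share was 7.94% and 7.52% for d3 clone 21, compared with 50.6% and 50.5% for d3 parental. The fall of Rps24 was smaller than this, and i7 clone 7 had 49.7% and 50.3% over the pooled genes. Rpl15 had 91.0% and 93.8% in the clone, with 9197 and 7818 counts assigned to 129S1, and 94.4% and 95.5% in d3 parental, with 7906 and 6079. Its CAST counts were higher in the clone, at 905 and 513 against 467 and 285 in d3 parental. Its ratio difference was -0.62 (edgeR adjusted p = 0.562). All coding windows of Rpl15 occur in another gene, so the source of the reads in its row is uncertain.

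**Figure D5:**
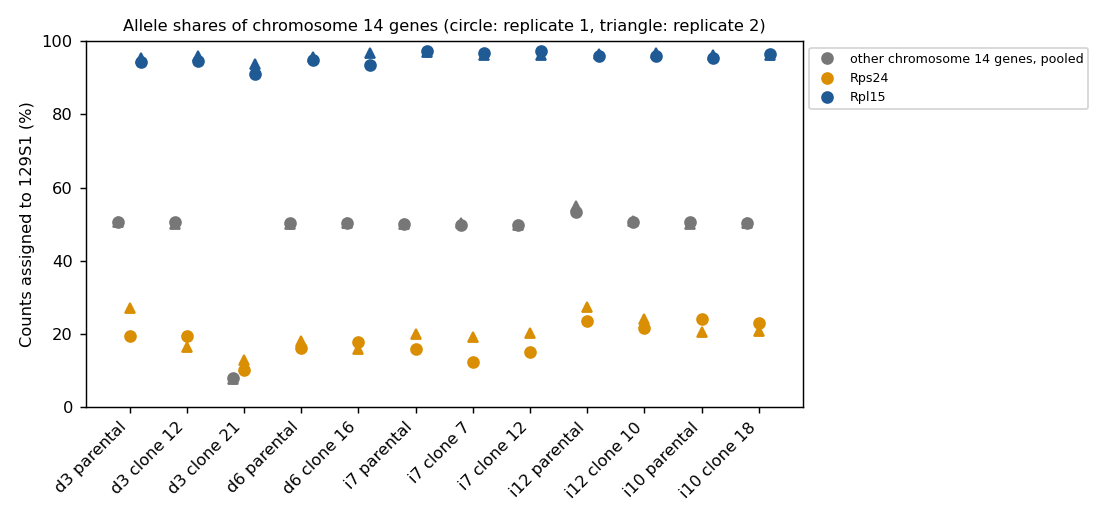
Percent of counts assigned to 129S1 (y axis) for Rps24, Rpl15 and the pooled other chromosome 14 genes in the 2 replicates of each line (x axis). In d3 clone 21 the pooled genes fall to 7.94% and 7.52% while Rpl15 is at 91.0% and 93.8%.

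In the other clones, edgeR called a changed ratio in 0 of 69 genes. Of all genes tested, 0.0463% were called for d3 clone 12 and likewise for d6 clone 16, and 2.19% for i7 clone 12. For i10 clone 18 the share was 0.0%, and for i7 clone 7 and i12 clone 10 it was 0.00926% each. An unadjusted p under 0.05 was reached by 11 ribosomal protein genes for d3 clone 12 and by 4 for d6 clone 16. It was reached by 3 for i7 clone 12, by 2 for i10 clone 18 and by 0 for i7 clone 7 and i12 clone 10. The share of all genes at an unadjusted p under 0.05 was not computed for ratios, so these counts have no like background. DESeq2 was not run on allele ratios. On distal chromosome 9, Rpl29 (chr9:106429454-106431568) had a 129S1 share of 97.3% to 99.5% over all 24 libraries, Rpsa (chr9:120127689-120132369) 10.8% to 19.3%, and Rpl14 (chr9:120571444-120574654) 11.6% to 19.9%. Rpsa was at 12.0% and 10.8% in d6 parental and 13.1% and 16.3% in i7 parental, below the 19.3% and 18.0% of i12 parental.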

How the data were processed

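Stranded poly(A) libraries were read as single 75-base reads, per the labels' protocols. STAR, SAMtools and build mm10 are named in the submitters' processing notes, and their settings are not given in the sources used here. The authors deposited raw counts per gene, 1 column per allele (129S1 and CAST) for each library, and the counts of both were added for total levels. Of 48985 identifiers, 48838 matched GENCODE M21 without the version number.

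Counts were tested with edgeR 4.0.16 in R 4.3.3 (TMM scaling, filterByExpr, quasi-likelihood, 1 fit of 24 libraries with a coefficient per line, 12 residual degrees of freedom), with DESeq2 1.42.0 as an alternative. Allele ratios were fitted in edgeR with a coefficient per library for genes with at least 10 counts per allele on average. Calls used a Benjamini-Hochberg adjusted p under 0.05. CPM used effective library sizes and length was the median over protein-coding transcripts. Copies were found with BLAST 2.17.0. Both fits were tested on simulated data.

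Genes were named by rule: the 8 highest and 4 lowest levels, called genes, genes on chromosomes 14 and distal 9, the 4 highest and 4 lowest allele shares, Rplp0 to Rplp2 and Rpsa, and those with most copies. One gene is counted among the members and not reported by itself here. The members and lists were chosen with earlier results of these data known. Alternatives covered scaling, filters, one allele only, a replicate block, and leaving out each library.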

Additional observations from a re-analysis of the deposited data

Results flagged for a closer look

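The percent of counts in ribosomal protein genes moved in opposite directions between clones. Both libraries of d3 clone 12 and of d3 clone 21 lay below the mean of d3 parental, by -1.41 and -1.35 percentage points on average, while both libraries of d6 clone 16 and of i7 clone 12 lay above their parental means, by 0.50 and 0.65 points. The difference between these clones was not tested as a share. The d3 mean includes d3 parental replicate 2, at 8.77%, and replicate 1 was at 6.06%.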

How the results depend on the processing

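Leaving out 1 library at a time gave 0 to 19 called genes for d3 clone 12 (4.74% of all genes at the highest), 0 to 12 for d3 clone 21 (3.63%) and 0 to 27 for the parental lines (11.5%), the highest in each case without d3 parental replicate 1. The allele ratio calls ran from 61 to 65 over the parental lines, 0 to 6 in d3 clone 12 (1.57% of all genes), 0 to 5 in d3 clone 21 (4.98%) and 0 to 1 in i7 clone 12 (1.23%). Without a filter, 14 genes differed between parental lines (11.9% of all genes), and with 129S1 counts only 1 was called in d3 clone 21 (2.59%). The labels do not say that replicate numbers pair the libraries. In the 9 pairs of lines of one recombination, the differences between replicates correlated across genes (r from 0.36 to 0.69), a hint from the data and not the design. Some pairs of lines from different recombinations had values as high, with 0.60 for d3 clone 21 and d6 clone 16, and 0.58 for i12 and i10 parental. Other such pairs ran down to -0.21, for d6 clone 16 and i7 parental. With the replicate number as a block, the common coefficient of variation was 0.119 in place of 0.246. The calls were then 18 between parental lines (42.3% of all genes), 1 in i7 clone 12 (6.27%), 1 for i7 clone 12 against clone 7 (9.76%), and, for allele ratios, 2 each in d3 clone 21 (3.51%), d6 clone 16 (0.324%) and i7 clone 12 (2.85%). With the union of exons as length, 4 of the 8 highest genes stayed, and with at least the coding length 7 did. Copies numbered 237 at 98% identity and 1130 at 90%. The cause of these differences was not tested. Alternatives named here aside, all counts of calls stayed within 1.5 times the main count. The alternatives without d3 parental replicate 1 or 2 for the medians, and the coding length, were chosen after seeing the data. With 2 replicates per line, small differences were not detectable.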
